A study of Mus musculus with 12 samples.

Results

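Transforming growth factor beta (TGF-beta) and bone morphogenetic protein (BMP) signalling was followed through 43 genes, chosen by name for their roles as ligands, binding proteins, receptors, SMADs, antagonists, feedback genes and direct targets, out of 51707 genes to which the deposited transcripts were matched. By role, 19 genes were placed in the TGF-beta arm, 18 in the BMP arm and 6 were shared by both. Earlier results of these data were known when the genes were chosen. RNA came from wild-type (WT) mouse cells labelled MLO-Y4, an osteocyte-like line. Cells of all 12 libraries were grown on rat collagen of type I coated at 0.15 mg/mL. There were 4 groups of 3 libraries: differentiated cells with BIGH3, differentiated control cells, undifferentiated cells with BIGH3 and undifferentiated control cells. BIGH3 is the protein encoded by TGFBI, a matrix protein named for its induction by TGF-beta, and recombinant human protein was added. Medium for differentiation held ascorbic acid at 50 µg/mL, β-glycerophosphate at 4 mM and serum at 10%, and a change with differentiation cannot be told apart from a direct response to that medium. Dose and duration of BIGH3, and what control cells received instead, are not given in the sources used here. An MC3 prefix, at odds with the labelled line, stands in the names under which the tables were deposited, and which line was used was not tested.

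Ligands of this family bind pairs of type I and type II receptor kinases, and the type I receptor passes the signal on by phosphorylating SMAD proteins. TGF-beta and activin ligands act mainly through SMAD2 and SMAD3, BMP ligands act mainly through SMAD1 and SMAD5, and both branches need SMAD4. Each branch induces its own brakes, such as Skil and Pmepa1 in the TGF-beta branch and Smad6 in the BMP branch, which also induces the Id genes as direct targets, and secreted antagonists such as gremlin and follistatin trap ligands outside the cell. In bone, BMP signals drive osteoblast differentiation, and TGF-beta stored in the matrix couples bone resorption to formation.

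Depth was 19014492 to 27612155 estimated reads per library. Of 9 osteocyte markers, Dmp1, Phex, Gja1, Pdpn and Cd44 were expressed in all 12 libraries, whereas Fgf23 had 0 reads in every library and Sost had reads in differentiated controls alone (10 reads over the group). Mepe had 42 reads over the differentiated controls and 2 to 4 over each other group. Tnfsf11 had reads in differentiated BIGH3 libraries alone (9 reads over the group). Liver transcripts, summed over 10 marker genes, reached 109 CPM (reads of the gene scaled to a common library size) in undifferentiated control 2, 73.0 CPM in differentiated BIGH3 3 and 50.4 CPM in differentiated control 2. Undifferentiated BIGH3 1 stood above the others of its group, and no library but these first 3 exceeded 25.8 CPM. Summed markers of endothelial cells, macrophages and adipocytes reached 7.91 CPM at most in a library. Mouse Tgfbi, which encodes the counterpart of the added protein, stood at 149, 148 and 134 CPM in differentiated BIGH3 libraries and 83.5, 83.3 and 84.6 CPM in differentiated controls. It stood at 35.9, 33.0 and 35.3 CPM in undifferentiated BIGH3 libraries and 36.3, 34.4 and 33.2 CPM in undifferentiated controls. Its mouse transcript was thus higher in each treated library of the differentiated cells and overlapped between the groups of undifferentiated cells. Whether the 3 libraries of a group are separate cultures is not stated in the labels, so p-values measure the spread between these libraries, which may be technical.

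Levels of different members were compared in TPM (the unit that also corrects for transcript length) summed per gene. Among receptors, Tgfbr2, the TGF-beta type II receptor, ranked the highest in every library, at 82.7 to 85.1 TPM in differentiated BIGH3, 79.6 to 91.7 in differentiated control, 117 to 137 in undifferentiated BIGH3 and 129.9 to 150.0 in undifferentiated control libraries. In differentiated controls Bmpr1a, a BMP type I receptor, came next with 36.1 to 39.0 TPM, followed by the TGF-beta type I receptor Tgfbr1 with 27.5 to 29.1 and the BMP and activin type I receptor Acvr1 with 24.6 to 29.4, whose ranges overlapped. Below them in those controls came Tgfbr3 with 17.5 to 19.7 TPM, Bmpr2 with 7.78 to 8.90, Acvr2a with 4.37 to 5.02 and Acvr2b with 0.195 to 0.476. In differentiated BIGH3 libraries the order differed in its upper ranks: Tgfbr3, with 49.5 to 55.0 TPM, stood above Acvr1 (34.9 to 36.8) and Bmpr1a (34.7 to 36.9), which overlapped, and Tgfbr1 followed with 21.4 to 23.7.

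Bmp4 had the highest TPM of the ligands in all 4 groups, with 65.2, 66.3 and 59.3 in differentiated BIGH3, 126, 132 and 123 in differentiated control, 168, 139.5 and 135 in undifferentiated BIGH3 and 135, 154 and 161 in undifferentiated control libraries. The other BMP ligands were low: Bmp6 reached 1.55 TPM at most, in a differentiated control library, and Bmp2 and Gdf10 had 2 and 0 reads over all 12 libraries. TGF-beta ligands were all present, and Tgfb3 led the TGF-beta isoforms in every library, with 36.4 to 38.9 TPM with BIGH3 and 27.2 to 29.9 TPM without in differentiated cells. The activin subunit Inhbb had 3 reads and the BMP antagonist noggin, Nog, had 2 reads over the 12 libraries, which were too few to test. With Bmp2 and Gdf10 these were the 4 members not tested. A count of 0 in the pooled libraries allows up to 0.0111 CPM, by counting error alone. Among the members, antagonist transcripts were led by Fstl1, a secreted follistatin-like protein. It had 391 to 402 TPM in differentiated BIGH3 and 281 to 320.4 TPM in differentiated control libraries.

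**Figure D1:**
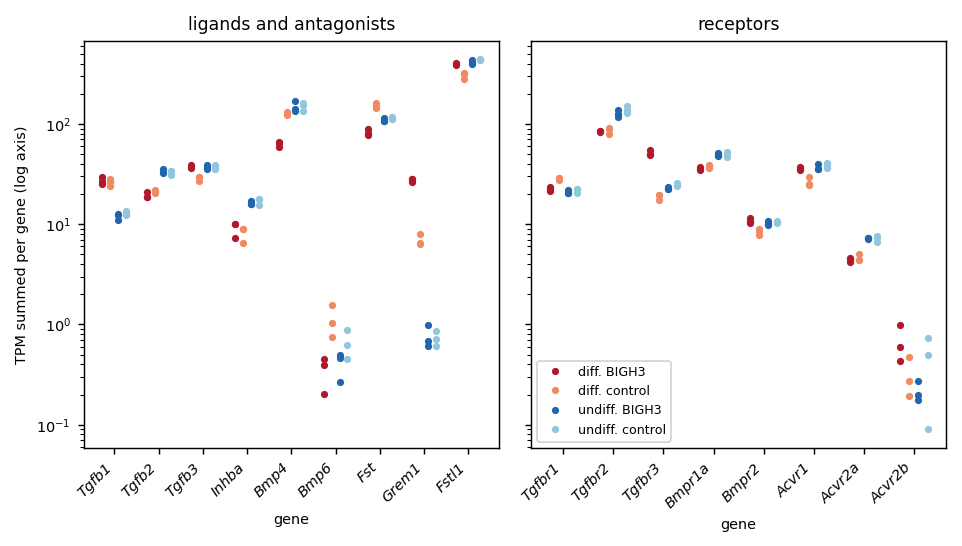
TPM of ligands and antagonists (left) and receptors (right) on a log axis, with 1 point per library and colours for the 4 groups. Bmp4 lies above the other ligands in each group, Grem1 spans the widest range between groups, and Tgfbr3 lies apart from its controls in differentiated BIGH3 libraries.

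In differentiated cells, BIGH3 treated libraries had lower transcripts of Bmp4, Bmp6 and the BMP-induced genes Id1, Id2, Id4 and Smad6. They had higher transcripts of gremlin 1, of the TGF-beta co-receptor Tgfbr3 and of the TGF-beta feedback genes Skil, Tgif1 and Pmepa1. Each arm also held called genes of the other direction. Ski, Tgfbr1, Tgfb2, Ltbp3 and Fst of the TGF-beta arm were lower, and the BMP arm receptors Acvr1 and Bmpr2 were higher. Calls of Smad6 and Pmepa1 ended in log2 TPM and with offsets for effective length. Of 39 members tested, 12 rose and 12 fell at an adjusted p below 0.05 (edgeR quasi-likelihood test, Benjamini-Hochberg over 14711 genes), or 61.5% of those tested. Calls were common across the transcriptome, with 45.5% of all tested genes called, 22.6% higher and 22.9% lower. A change of over 2-fold was called for 6 members, against 10.7% of all tested genes. The TGF-beta arm had 8 rises and 5 falls among 18 tested, with a median log2 fold change of 0.12 (0.20 without differentiated BIGH3 3 and 0.18 without the 3 libraries with the most liver transcripts). In the BMP arm 4 genes rose and 6 fell among 15 tested, with a median of -0.14, and of the 6 shared genes Bambi alone was called, as lower. The median over all tested genes was -0.01. Libraries of the groups did not overlap for 29 members, against 55.1% of all tested genes. As the RNA was taken in bulk, fewer cells of a type and less RNA per cell cannot be told apart.

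**Figure D2:**
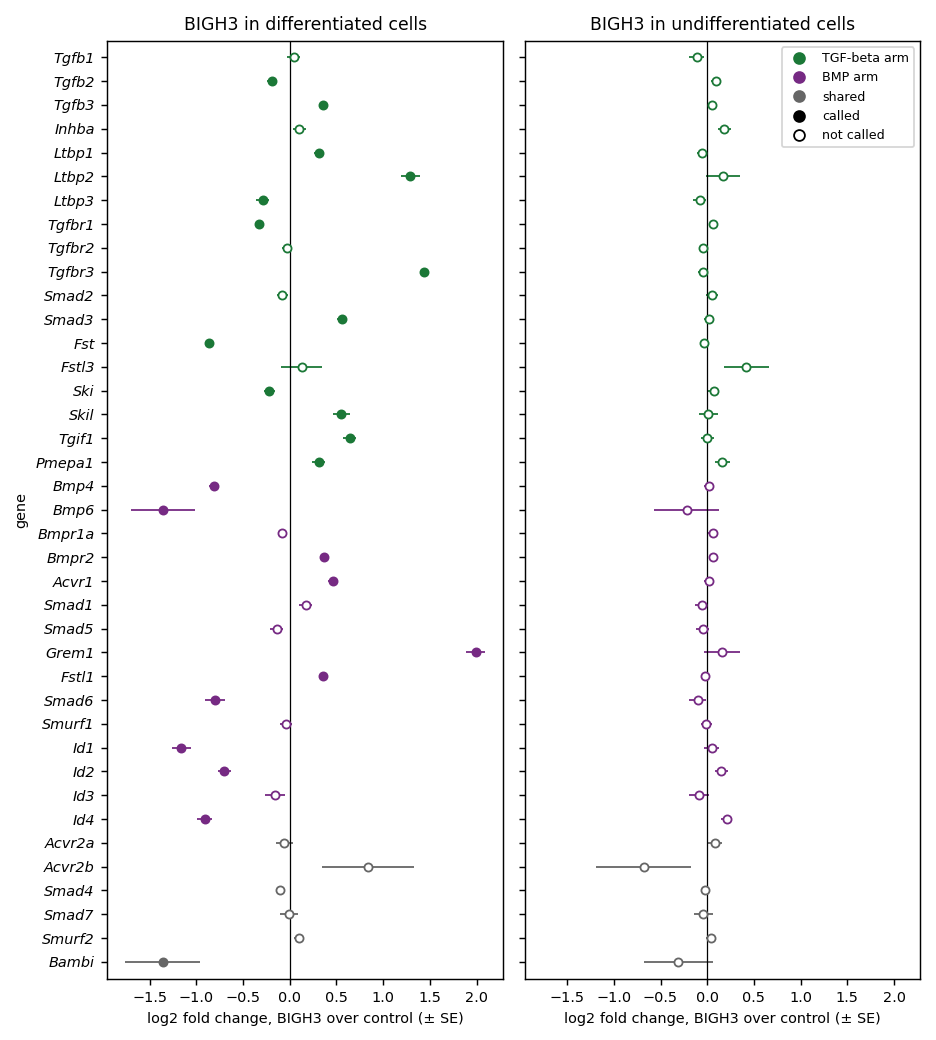
Log2 fold change of BIGH3 over control for the 39 tested members in differentiated cells (left) and undifferentiated cells (right). Standard errors are from the edgeR fit of all 12 libraries, with 3 libraries per group. Filled points were called at an adjusted p below 0.05, 24 in differentiated and 0 in undifferentiated cells.

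Both measured BMP ligands were lower with BIGH3. Bmp4 stood at 92.9, 82.6 and 81.8 CPM in differentiated BIGH3 libraries and 148, 149 and 153 CPM in differentiated controls. Each treated library lay far below each control, and the log2 fold change was -0.81 ± 0.05 (SE, adjusted p = 3.15e-11). Its main coding transcript, Bmp4-201, had 54.4, 47.8 and 53.0 TPM with BIGH3 and 90.4, 90.6 and 90.0 TPM in controls. A short transcript with a retained intron, Bmp4-204, differed in the same direction, with 4.89, 14.4 and 5.66 TPM with BIGH3 and 32.6, 38.9 and 32.3 TPM in controls. Bmp6, a low-level BMP ligand, had 1.00, 1.18 and 0.504 CPM with BIGH3 and 2.60, 1.93 and 2.38 CPM without, again with no overlap, and fell by 1.36 ± 0.34 on the log2 scale (adjusted p = 0.00283). An exon of Bmp6 overlaps Txndc5 on the opposite strand, which averaged 343 CPM with BIGH3 and 542 CPM without. Nothing in the labels says that strand was kept, and without it reads of such pairs cannot be told apart, and the part of Txndc5 in the Bmp6 difference was not tested.

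Gremlin 1, Grem1, a secreted protein that binds and blocks BMP2 and BMP4, had the largest rise of the 39 tested members. It stood at 94.7, 90.8 and 91.1 CPM in differentiated BIGH3 libraries and 25.5, 21.2 and 22.9 CPM in differentiated controls. The groups lay 3.97-fold apart, with a log2 fold change of 1.99 ± 0.10 (adjusted p = 5.07e-12). Undifferentiated cells carried little of it, at 1.70, 3.00 and 2.03 CPM with BIGH3 and 2.39, 2.00 and 1.64 CPM without. Fstl1, which has been reported to bind BMP4, also rose, with 1148 to 1238 CPM in differentiated BIGH3 and 915 to 952 CPM in differentiated control libraries (log2 fold change 0.36 ± 0.04, adjusted p = 4.72e-07).

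Of the BMP arm receptors and SMADs, 2 receptors rose and the other 3 genes were not called. Acvr1, a type I receptor, had 82.5, 80.6 and 77.1 CPM with BIGH3 and 61.8, 55.1 and 57.5 CPM in differentiated controls, and rose by 0.46 ± 0.05 on the log2 scale (adjusted p = 5.59e-07). Bmpr2, the BMP type II receptor, had 110.3, 114 and 116 CPM with BIGH3 and 85.7, 90.8 and 87.4 CPM without, and rose by 0.37 ± 0.04 (adjusted p = 8.26e-07). Neither receptor overlapped between the groups. The type I receptor Bmpr1a was not called, at -0.08 ± 0.05 (adjusted p = 0.22). Among the member SMADs that carry the BMP signal, neither Smad1 (0.17 ± 0.07, adjusted p = 0.0648) nor Smad5 (-0.14 ± 0.07, adjusted p = 0.0931) was called. Smad5 was called lower without differentiated BIGH3 3 (-0.19, adjusted p = 0.0458). Smad9, a SMAD of the same branch listed apart from the members, averaged 4.88 CPM with BIGH3 and 7.50 CPM without. Its libraries overlapped, with 6.43 CPM in differentiated BIGH3 1 and 6.32 CPM in differentiated control 2.

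Target and feedback genes of the BMP arm were lower or not called, with 4 of 6 lower and none higher. Id1, an inhibitor of helix-loop-helix transcription factors and a direct BMP target, had 9.98, 8.82 and 8.34 CPM in differentiated BIGH3 libraries and 19.8, 20.6 and 20.5 CPM in differentiated controls. Each treated library lay below each control, 2.23-fold lower (log2 fold change -1.16 ± 0.10, adjusted p = 4.55e-09). Id4, of the same family, had 12.7, 12.9 and 12.3 CPM with BIGH3 and 22.1, 23.4 and 25.5 CPM without, a log2 fold change of -0.91 ± 0.08 (adjusted p = 3.17e-09). Id2 had 29.7 to 31.3 CPM with BIGH3 and 48.0 to 54.0 CPM without, and its log2 fold change was -0.70 ± 0.07 (adjusted p = 9.33e-08). None of these family members overlapped between the groups. Id3 stood apart from them, with 60.7, 63.2 and 61.5 CPM with BIGH3 and 70.0, 74.4 and 63.0 CPM without, overlapping groups and no call (-0.16 ± 0.11, adjusted p = 0.257). It was called with the compared groups fitted alone (adjusted p = 0.0407) and with no filter on low counts (0.0159).

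Smad6, the inhibitory SMAD that BMP signals induce, had 4.83, 4.28 and 4.09 CPM in differentiated BIGH3 libraries and 7.73, 7.92 and 7.37 CPM in differentiated controls. The groups did not overlap, and the log2 fold change was -0.80 ± 0.11 (adjusted p = 4.12e-06). This call ended in log2 TPM (-0.33, adjusted p = 0.213) and with offsets for effective length (-0.42, adjusted p = 0.105). In differentiated BIGH3 3 alone, 3.56 reads assigned to the short transcript Smad6-203 made up 50.7% of the gene's TPM, and the part of these reads was not tested. Its main transcript, Smad6-201, had 106, 80.0 and 68.4 reads with BIGH3 and 187, 168 and 161 reads in controls. Smurf1, a ubiquitin ligase that marks SMAD1 and SMAD5 for breakdown, was not called (-0.04 ± 0.06, adjusted p = 0.584).

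Summed chondrocyte markers (5 genes, led by Sox9 and Col2a1) moved with the BMP targets, at 122 to 130.1 CPM in differentiated BIGH3 and 212 to 220.3 CPM in differentiated control libraries. Their 5 genes all had reads, with Matn1 at 0 in the treated differentiated libraries. Of 8 osteoblast markers, 7 had lower means with BIGH3, among them Alpl (7.45 CPM with BIGH3 and 24.2 CPM without), Bglap2 (7.46 CPM with BIGH3 and 26.1 CPM without) and Col1a1 (1768 CPM with BIGH3 and 2173 CPM without). Spp1 alone was higher, at 10599 CPM with BIGH3 and 3211 CPM without, and it set the direction of their sum, 11783 to 12947 CPM with BIGH3 and 5415 to 5591 CPM without. Muscle markers (4 genes) summed to 4.14 to 6.06 CPM with BIGH3 and 16.4 to 18.4 CPM without, and adipocyte markers (4 genes) to 2.30 to 2.69 CPM with BIGH3 and 0.778 to 1.20 CPM without. Of the osteocyte markers, Dmp1 (85.7 CPM with BIGH3 and 37.1 CPM without), Pdpn, Gja1 and Cd44 had higher means with BIGH3. Phex (23.9 CPM with BIGH3 and 83.8 CPM without), Mepe and Sost had lower means. The part of these lists in the BMP results was not tested. Runx2, Sp7, Alpl and Bglap of the osteoblast markers are also in the list of BMP targets below, so their falls are counted in both.

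Start regions of 4 members of the BMP loop are shown because these genes moved together in differentiated cells: the antagonist Grem1 rose while the ligand Bmp4, the inhibitory Smad6 and the target Id4 fell. Each sequence is the 250 bases before the RefSeq transcription start (GRCm38.p6), 5′ to 3′ on the gene's strand, at chr2:113758649-113758898 (minus strand), chr14:46390670-46390919 (minus), chr9:64022060-64022309 (minus) and chr13:48260866-48261115 (plus). None overlaps an annotated exon. Capitals mark the SMAD box CAGAC, searched on both strands, and the GC-rich SMAD element GGCGCC, which reads the same on both strands.
Grem1: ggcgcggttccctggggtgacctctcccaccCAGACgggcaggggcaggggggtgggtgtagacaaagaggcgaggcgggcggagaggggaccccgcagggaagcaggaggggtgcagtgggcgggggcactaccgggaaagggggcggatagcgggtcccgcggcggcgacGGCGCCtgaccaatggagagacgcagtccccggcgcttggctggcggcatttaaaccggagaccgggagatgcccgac
Bmp4: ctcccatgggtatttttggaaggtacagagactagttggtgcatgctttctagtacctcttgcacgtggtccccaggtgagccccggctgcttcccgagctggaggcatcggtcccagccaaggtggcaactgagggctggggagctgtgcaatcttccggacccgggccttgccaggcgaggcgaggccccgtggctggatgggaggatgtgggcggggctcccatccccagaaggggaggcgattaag
Smad6: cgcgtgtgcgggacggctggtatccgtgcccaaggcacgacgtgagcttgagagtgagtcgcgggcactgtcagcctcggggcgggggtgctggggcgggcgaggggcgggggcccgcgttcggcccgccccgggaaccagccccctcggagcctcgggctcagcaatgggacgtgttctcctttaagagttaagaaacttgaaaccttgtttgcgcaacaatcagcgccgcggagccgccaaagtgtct
Id4: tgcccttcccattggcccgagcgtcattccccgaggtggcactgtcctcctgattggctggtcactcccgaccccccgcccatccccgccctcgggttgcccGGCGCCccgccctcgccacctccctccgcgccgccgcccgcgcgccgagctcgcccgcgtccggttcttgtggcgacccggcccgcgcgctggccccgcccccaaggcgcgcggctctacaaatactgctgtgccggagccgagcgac
Grem1 held CAGAC and GGCGCC once each, starting 219 and 78 bases before the transcription start, and Id4 held GGCGCC once, 148 bases before it. Neither motif was found in the windows of Bmp4 and Smad6. Among 32851 promoter windows of the same length, 42.2% held CAGAC and 9.59% held GGCGCC, so these matches describe the letters and name no bound site.

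**Figure D3:**
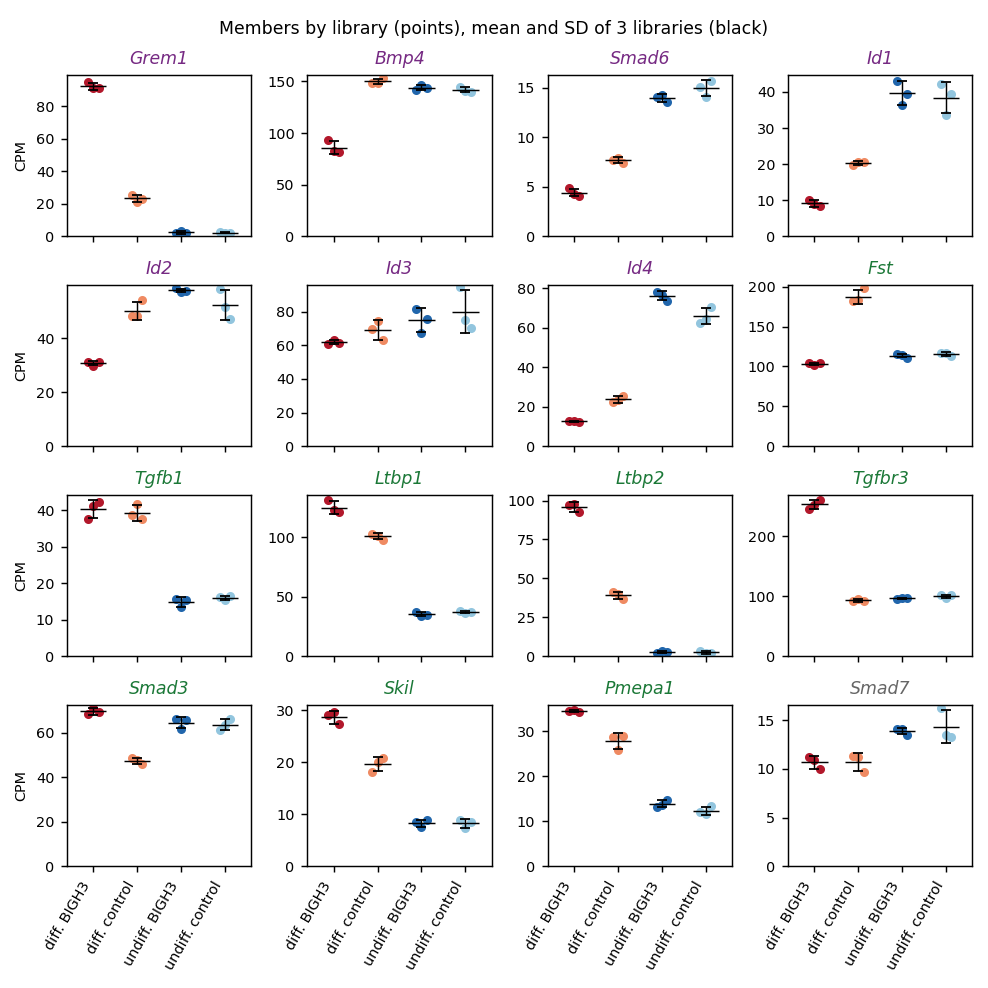
CPM of 16 members in each library (points) with the mean and SD of 3 libraries (black), each axis starting at 0, with names in purple for the BMP arm, green for the TGF-beta arm and grey for shared genes. Bmp4, Smad6, Id1, Id2 and Id4 lie lower and Grem1, Ltbp2, Tgfbr3 and Smad3 higher in differentiated BIGH3 than in differentiated control libraries, whereas Tgfb1 and Smad7 overlap.

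In the TGF-beta arm, ligand transcripts moved little with BIGH3 in differentiated cells. Tgfb1 had 37.5, 41.0 and 42.3 CPM with BIGH3 and 38.6, 41.6 and 37.6 CPM in differentiated controls, with overlapping libraries and no call (0.04 ± 0.07, adjusted p = 0.723). Tgfb3 rose 1.28-fold, with 104 to 105 CPM with BIGH3 and 80.2 to 82.4 CPM without (adjusted p = 9.32e-07). Tgfb2 fell 1.14-fold, with 68.9 to 69.9 CPM with BIGH3 and 77.3 to 82.4 CPM without (adjusted p = 0.00315), a call that ended in log2 TPM (adjusted p = 0.155). Inhba, the activin A subunit, was not called (0.10 ± 0.07, adjusted p = 0.24), and passed the threshold without differentiated BIGH3 3 (0.17, adjusted p = 0.0490).

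Among the members, all 3 genes of the latent TGF-beta binding protein family were called, 2 higher and 1 lower. Ltbp4, of the same family but listed apart from the members, averaged 22.3 CPM in differentiated BIGH3 and 58.4 CPM in differentiated control libraries. Ltbp2, a fibrillin-binding member of the family that is known not to bind latent TGF-beta itself, had 97.3, 98.0 and 92.5 CPM in differentiated BIGH3 libraries and 41.2, 39.7 and 36.7 CPM in differentiated controls. Groups were well separated, 2.45-fold apart (log2 fold change 1.29 ± 0.10, adjusted p = 4.22e-09). Ltbp1, which binds the latent TGF-beta complex, had 131, 123 and 121 CPM with BIGH3 and 103, 101 and 98.0 CPM without, a smaller rise of 0.31 ± 0.05 (adjusted p = 2.49e-05). Ltbp3, which also binds the latent complex, fell by 0.29 ± 0.07 (adjusted p = 0.00281), with 165 to 174 CPM with BIGH3 and 191 to 219.5 CPM without, and in log2 TPM it was not called (adjusted p = 0.0607). An exon of Ltbp2 overlaps D030025P21Rik on the opposite strand, which averaged 2.02 CPM with BIGH3 and 0.970 CPM without.

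Tgfbr3, or betaglycan, a co-receptor that presents TGF-beta ligands and also binds inhibin and BMPs, had the smallest adjusted p of the 39 tested members. It had 246, 252 and 260.5 CPM in differentiated BIGH3 libraries and 92.1, 96.0 and 91.9 CPM in differentiated controls. In undifferentiated controls it had 101, 97.2 and 102 CPM. Treated differentiated cells stood 2.71-fold above their controls (log2 fold change 1.44 ± 0.05, adjusted p = 6.73e-16). Tgfbr1, the signalling type I receptor, fell by 0.33 ± 0.04 on the log2 scale, with 99.2, 104 and 101 CPM with BIGH3 and 125, 128 and 129.6 CPM without (adjusted p = 1.82e-06). Tgfbr2 was not called (-0.03 ± 0.05, adjusted p = 0.599). Of the SMADs that carry the TGF-beta signal, Smad3 rose, with 68.4, 71.4 and 69.6 CPM with BIGH3 and 48.6, 47.7 and 45.9 CPM without (0.56 ± 0.05, adjusted p = 2.38e-08). Smad2 was not called in counts (-0.08 ± 0.06, adjusted p = 0.282), but was lower with offsets for effective length (-0.31, adjusted p = 0.00764) and in log2 TPM (-0.27, adjusted p = 0.0266).

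Follistatin, Fst, an activin trap that also binds some BMPs, stood at 104, 102 and 104 CPM in differentiated BIGH3 libraries and 182, 183 and 198 CPM in differentiated controls. Without overlap it was 1.81-fold lower (log2 fold change -0.86 ± 0.05, adjusted p = 3.57e-12), the reverse of the direction of the antagonist Grem1. The related Fstl3 had 3.88, 3.42 and 2.80 CPM with BIGH3 and 3.35, 2.92 and 2.97 CPM without and was not called (adjusted p = 0.675).

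Of the 4 TGF-beta feedback genes, 3 rose and 1 fell. Skil, which encodes the SMAD co-repressor SnoN, had 29.1, 29.7 and 27.3 CPM in differentiated BIGH3 libraries and 18.1, 20.1 and 20.9 CPM in differentiated controls (0.55 ± 0.09, adjusted p = 3.34e-05). Tgif1, a homeobox repressor of SMAD-driven transcription, had 61.1, 58.0 and 61.7 CPM with BIGH3 and 35.1, 40.2 and 40.8 CPM without (0.64 ± 0.07, adjusted p = 5.10e-07). In both genes each treated library lay above each control. Pmepa1, a membrane protein that keeps SMAD2 and SMAD3 from the receptor, had 34.6, 34.7 and 34.3 CPM with BIGH3 and 28.7, 25.9 and 29.0 CPM without. Its rise of 0.31 ± 0.07 (adjusted p = 0.00158) was not called in log2 TPM (adjusted p = 0.112) or with offsets for effective length (0.118). The short transcript Pmepa1-203 held 21.2% to 41.1% of the gene's TPM in differentiated BIGH3 libraries and 0% to 32.2% in differentiated controls. Ski, the co-repressor related to SnoN, was lower, with 82.5 to 94.3 CPM with BIGH3 and 101 to 106 CPM without (-0.22 ± 0.06, adjusted p = 0.00718). That call ended in log2 TPM (adjusted p = 0.101), without the 3 libraries with the most liver transcripts (-0.18, adjusted p = 0.0798) and without these and undifferentiated BIGH3 1 (-0.17, adjusted p = 0.106).

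Of the 6 genes shared by both branches, 5 were not called. Smad7, the inhibitory SMAD of both branches, had 11.3, 10.9 and 9.96 CPM in differentiated BIGH3 libraries and 11.4, 11.2 and 9.70 CPM in differentiated controls, overlapping and not called (-0.01 ± 0.10, adjusted p = 0.971). Smad4, the common partner, Smurf2, a ubiquitin ligase for receptors and SMADs, and the type II receptor Acvr2a missed the threshold, at -0.10 for Smad4, 0.10 for Smurf2 and -0.06 for Acvr2a on the log2 scale. Smurf2 passed the threshold without differentiated control 3 (adjusted p = 0.0424). Acvr2b, at 0.957 to 1.46 CPM with BIGH3 and 0.458 to 0.849 CPM without, was not called either (adjusted p = 0.17). Bambi, a decoy receptor without a kinase that TGF-beta and BMP signals induce, had 0.547, 0.214 and 0.616 CPM with BIGH3 and 1.24, 1.51 and 0.824 CPM without. It fell by 1.36 ± 0.40 on the log2 scale (adjusted p = 0.00895), and this low-count call ended without differentiated BIGH3 2 (-1.04, adjusted p = 0.0502).

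With BIGH3 in undifferentiated cells, none of the tested members passed the threshold. Of 39 tested, 3 had an unadjusted p below 0.05 in edgeR (Inhba, Id2 and Id4), DESeq2 also called 0, and 0.0204% of all tested genes were called, 0.00680% higher, 0.0136% lower and 0.0136% over 2-fold. Log2 fold changes of members ran from -0.68, in the low-count Acvr2b, to 0.42, in Fstl3. Bmp4 had 142, 146 and 144 CPM in undifferentiated BIGH3 libraries and 145, 141 and 140.1 CPM in undifferentiated controls. Id1 had 43.1, 36.5 and 39.5 CPM with BIGH3 and 42.2, 33.7 and 39.5 CPM without, and Tgfb1 had 15.8, 13.3 and 15.3 CPM with BIGH3 and 16.1, 15.4 and 16.4 CPM without. All of these groups overlapped. Libraries did not overlap for 3 members, Inhba, Tgfbr1 and Id4, against 8.96% of all tested genes. Id4, with 78.2, 76.6 and 73.6 CPM with BIGH3 and 62.6, 64.4 and 70.6 CPM without, had the smallest unadjusted p of the members, and its log2 fold change of 0.21 ± 0.06 was not called and was opposite in sign to that in differentiated cells.

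The BIGH3 effect differed between the states for 20 of 39 tested members, by the interaction term (11 positive and 9 negative), where 32.2% of all tested genes were called (16.2% as positive). A difference of over 2-fold was called for 5 members, against 8.61% of all tested genes. In log2 TPM the called interactions split into 2215 positive and 1139 negative over all genes, against 2378 and 2352 with TMM, and into 11 and 6 among members. The largest of the called differences were 1.83 ± 0.21 for Grem1, 1.48 ± 0.06 for Tgfbr3, -1.21 ± 0.13 for Id1, 1.12 ± 0.21 for Ltbp2 and -1.11 ± 0.10 for Id4, all on the log2 scale. Adjusted p was 2.12e-06 for Grem1, 3.41e-13 for Tgfbr3, 2.91e-07 for Id1, 0.000425 for Ltbp2 and 1.54e-08 for Id4. Members called in differentiated cells without a called interaction were Ltbp3, Pmepa1, Bmp6 and Bambi, with adjusted p from 0.0833 (Bmp6) to 0.331 (Pmepa1).

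Differentiation without BIGH3 had its own pattern across the members, in which TGF-beta arm genes moved in both directions and the BMP-induced Id1, Id4 and Smad6 were lower. Of 39 tested, 10 rose and 19 fell in differentiated against undifferentiated controls, where 57.7% of all tested genes were called, 29.1% higher and 28.6% lower. Libraries of the groups did not overlap for 31 members, against 63.4% of all tested genes. By arm, 8 rose and 7 fell of 18 in the TGF-beta arm, 2 rose and 8 fell of 15 in the BMP arm, and 4 of 6 shared genes fell. This comparison was sensitive to scaling: scaling by library totals put the median of all genes at -0.16 and log2 TPM put it at -0.28, against -0.01 with TMM (the trimmed mean of M-values, the scaling used here). All called genes split into 2930 higher and 5899 lower with library totals, and 1736 higher and 6972 lower in TPM, against 4287 and 4204 with TMM. Members split into 10 higher and 25 lower with library totals and 9 higher and 27 lower in TPM.

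Matrix and antagonist genes led the rises with differentiation. Ltbp2 had 41.2, 39.7 and 36.7 CPM in differentiated controls and 3.24, 2.37 and 1.78 CPM in undifferentiated controls (4.02 ± 0.13, adjusted p = 3.03e-14). Grem1, whose values are given above, rose by 3.55 ± 0.14 on the log2 scale (adjusted p = 8.96e-14). Both genes were close to silent in undifferentiated libraries and well expressed in each differentiated control. Ltbp1 had 103, 101 and 98.0 CPM in differentiated and 37.7, 36.2 and 37.3 CPM in undifferentiated controls (1.44 ± 0.05, adjusted p = 2.96e-15). Tgfb1 stood at 38.6, 41.6 and 37.6 CPM in differentiated and 16.1, 15.4 and 16.4 CPM in undifferentiated controls, with no overlap (1.29 ± 0.08, adjusted p = 1.05e-11). Feedback genes Skil (1.25 ± 0.09, adjusted p = 5.02e-10) and Pmepa1 (1.17 ± 0.08, adjusted p = 5.16e-11) rose as well. Skil had 18.1, 20.1 and 20.9 CPM in differentiated and 8.86, 7.31 and 8.62 CPM in undifferentiated controls, and Pmepa1 had 28.7, 25.9 and 29.0 CPM in differentiated and 12.1, 11.7 and 13.3 CPM in undifferentiated controls. Libraries of both genes were apart between the states. Rises were also called for Fstl3 (1.11), Tgfbr1 (0.71), Fst (0.70) and Bmp6 (1.18), of which Bmp6 was not called in log2 TPM (adjusted p = 0.0673).

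Fstl3, an activin antagonist of low level, had 1.03, 1.80 and 1.43 CPM in undifferentiated controls, below its differentiated controls. The falls with differentiation were led by Id4, with 22.1, 23.4 and 25.5 CPM in differentiated and 62.6, 64.4 and 70.6 CPM in undifferentiated controls (-1.48 ± 0.07, adjusted p = 1.21e-13). Smad6 had 7.73, 7.92 and 7.37 CPM in differentiated and 15.1, 14.1 and 15.7 CPM in undifferentiated controls (-0.96 ± 0.10, adjusted p = 3.83e-08), and Id1 fell by 0.92 ± 0.09 (adjusted p = 1.42e-08). None of these BMP-induced genes overlapped between the states. Summed chondrocyte markers were lower in the same comparison, at 212 to 220.3 CPM in differentiated and 329.8 to 365 CPM in undifferentiated controls. Col2a1 averaged 49.7 CPM in differentiated and 115 CPM in undifferentiated controls and Sox9 152 CPM in differentiated and 224 CPM in undifferentiated controls, whereas Cnmd (11.8 CPM in differentiated and 2.97 CPM in undifferentiated controls) and Matn1 had higher means. The part of these markers in the falls was not tested. Inhba fell by 0.72 on the log2 scale, Smad3 by 0.43, Smad1 by 0.41 and Smad7 by 0.41, and the other called falls lay between -0.39 and -0.14. Bmp4 was not called (0.08 ± 0.05, adjusted p = 0.176), and in log2 TPM its value had the other sign and was called (-0.24, adjusted p = 0.0354), a value smaller in size than the median of all genes on that scale (-0.28). Id2 and Id3 were not called with TMM and were called lower with library totals (-0.21 and -0.35) and in TPM (-0.38 and -0.55). Id3 was also called lower with offsets for effective length (-0.25), with no filter on low counts (-0.22) and without undifferentiated control 3 (-0.29). Tgfbr3 was not called with TMM (-0.10 ± 0.05, adjusted p = 0.0613), although its libraries did not overlap between the states. It was called lower with library totals (-0.25, adjusted p = 0.000162), in TPM (-0.38, adjusted p = 0.000309) and without the 3 libraries with the most liver transcripts (-0.14, adjusted p = 0.0356), and also without undifferentiated control 2 (0.0469), differentiated BIGH3 1 (0.0495) or differentiated BIGH3 3 (0.0396).

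**Figure D4:**
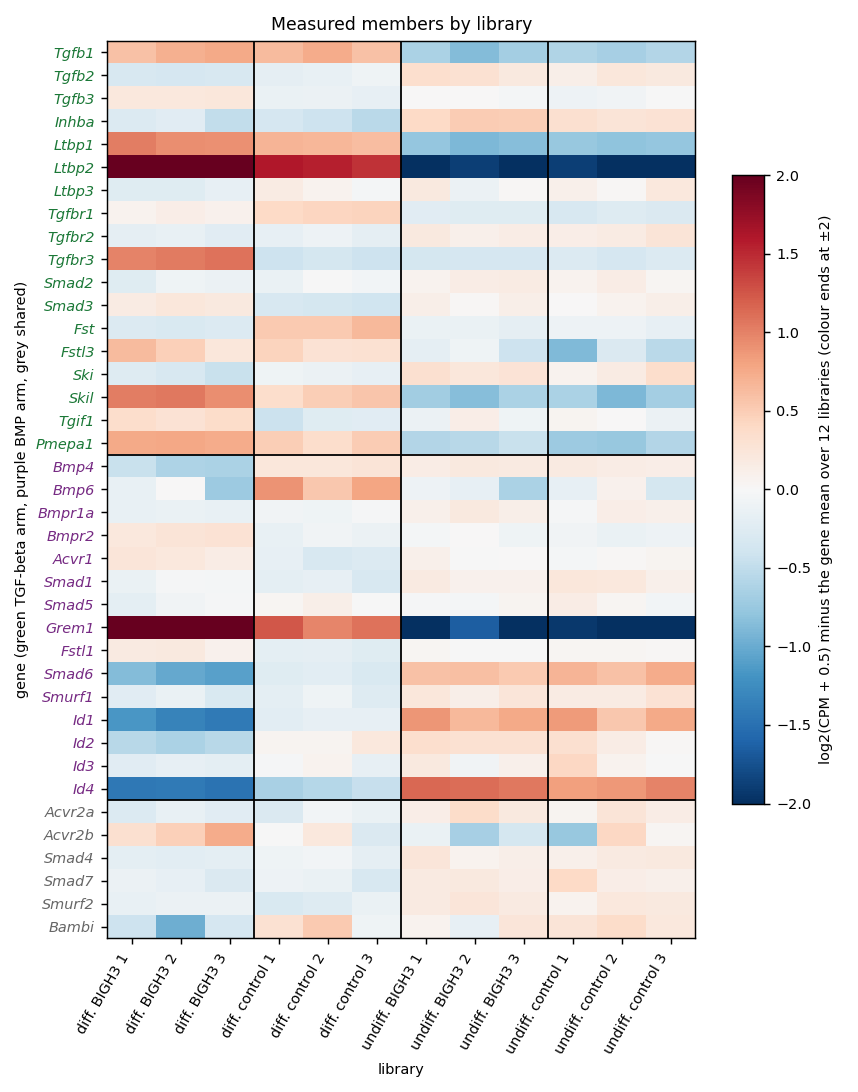
Log2(CPM + 0.5) of the 39 tested members in each of the 12 libraries, centred on the gene's mean, with genes grouped by arm and black lines between groups of libraries. Ltbp2 and Grem1 show the strongest contrast between differentiated and undifferentiated libraries, Tgfbr3 is high in differentiated BIGH3 libraries, and Id1 and Id4 are lowest there.

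In BIGH3 treated cells differentiation was compared in the same way, with 15 of 39 members higher and 21 lower, where 56.6% of all tested genes were called, 28.9% higher and 27.7% lower. Libraries of the groups did not overlap for 37 members, against 62.6% of all tested genes. Over all genes 4253 rose and 4076 fell with TMM, against 3107 and 5304 with library totals and 2126 and 5778 in TPM, where the median of all genes was -0.10 and -0.18. Members split into 13 higher and 22 lower with library totals and 8 higher and 21 lower in TPM. The libraries are shared with the BIGH3 comparisons, so their values are set side by side and no agreement is drawn from them. Id4 had a log2 fold change of -2.59 ± 0.07, with 12.7, 12.9 and 12.3 CPM in differentiated BIGH3 libraries and 78.2, 76.6 and 73.6 CPM in undifferentiated BIGH3 libraries. Id1 fell by 2.13 ± 0.10, with 9.98, 8.82 and 8.34 CPM in differentiated and 43.1, 36.5 and 39.5 CPM in undifferentiated BIGH3 libraries, and Smad6 by 1.66 ± 0.10. Grem1 rose by 5.38 ± 0.13, Ltbp2 by 5.14 ± 0.13 and Tgfbr3 by 1.38 ± 0.05. Bmp4, not called in control cells, fell by 0.75 ± 0.05 (adjusted p = 8.06e-11). Fst rose with differentiation in control cells (0.70) and was slightly lower with differentiation in treated cells (-0.14 ± 0.05, adjusted p = 0.017), a call that ended when the 3 libraries with the most liver transcripts and undifferentiated BIGH3 1 were left out (-0.14, adjusted p = 0.0848).

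Other genes of both pathways, 92 in 7 lists by role, gave 26 rises and 22 falls with BIGH3 among 74 tested in differentiated cells, and 0 calls in undifferentiated cells (4 with an unadjusted p below 0.05 in edgeR, and 0 called by DESeq2). Genes known as TGF-beta targets had 11 rises and 4 falls of 19 tested, with a median log2 fold change of 0.19. Tgfbi (0.78 ± 0.05), Timp1, a metalloproteinase inhibitor (1.66 ± 0.11), and Angptl4, a secreted regulator of lipoprotein lipase (3.04 ± 0.31), rose. Ccn2, a matrix-associated growth factor, fell to a level 2.00-fold lower, with 19.5, 21.3 and 19.6 CPM in differentiated BIGH3 and 37.5, 40.8 and 42.2 CPM in differentiated control libraries. Genes known as BMP targets had 1 rise and 6 falls of 9 tested, with a median of -1.22. Msx1 and Dlx5, homeobox factors of skeletal development, fell by 1.22 ± 0.10 and 1.26 ± 0.13. Msx1 had 13.9, 13.0 and 12.5 CPM with BIGH3 and 33.3, 30.9 and 27.5 CPM without, and Dlx5 had 3.42, 3.53 and 4.09 CPM with BIGH3 and 8.60, 7.87 and 9.93 CPM without. Each treated library lay below each control. Bglap, or osteocalcin, fell by 1.78 ± 0.16, and Alpl, the phosphatase of mineralising cells, by 1.70 ± 0.32. Means of Atoh8 and Msx2, from the same list, went the other way in differentiated cells. Atoh8 averaged 9.03 CPM with BIGH3 and 6.68 CPM without, and Msx2 averaged 4.10 CPM with BIGH3 and 2.78 CPM without. All genes tested are the background for these counts, with 45.5% called and a median of -0.01. The lists were chosen with earlier results of these data known, so the counts describe these genes and are no independent test of a direction.

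Among other antagonists, 5 rose and 3 fell of 10 tested. Dcn, decorin, a matrix proteoglycan that binds TGF-beta, rose by 1.60 ± 0.05, with 1044, 1038 and 975 CPM in differentiated BIGH3 and 317, 332 and 360.1 CPM in differentiated control libraries. Its groups did not overlap, while the BMP binding proteins Chrdl1 (-0.40) and Bmper (-0.45) fell. Genes of latency and activation were evenly split, with 4 rises and 4 falls of 11 tested. Lrrc32, which tethers latent TGF-beta at the cell surface, rose by 1.42 ± 0.26, and the integrin Itgb8, an activator, by 0.54 ± 0.06. Ltbp4 fell by 1.39 ± 0.11 and the fibrillin Fbn1 by 0.41 ± 0.06. Of 17 other intracellular regulators 4 rose and 3 fell, among them the ubiquitin ligase Nedd4l (0.54), the transcription factor Zeb1 (0.27), the phosphatase Ppm1a (0.22) and the SMAD inhibitor Ldlrad4 (-0.60). Of 5 other receptors and co-receptors, the BMP co-receptors Rgma (-0.20) and Rgmb (-0.17) fell and none rose, and of 3 other ligands Inha, the inhibin alpha subunit, rose (0.98 ± 0.23).

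**Figure D5:**
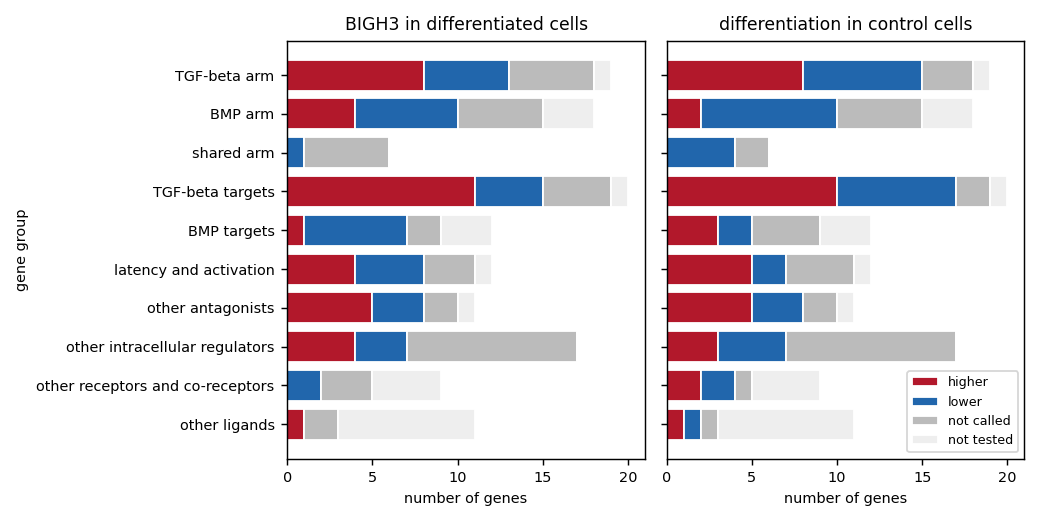
Number of genes called higher, called lower, not called and not tested in each gene group, with BIGH3 in differentiated cells (left) and with differentiation in control cells (right). BMP targets and the BMP arm hold more falls than rises with BIGH3 (6 against 1 and 6 against 4), and the TGF-beta targets and TGF-beta arm more rises than falls (11 against 4 and 8 against 5). The gene groups were chosen with earlier results of these data known.

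With differentiation in control cells the same lists held 29 rises and 21 falls of 74 tested. Of all tested genes 57.7% were called, 29.1% higher and 28.6% lower. The lists split into 22 rises and 33 falls with library totals and 17 rises and 37 falls in TPM. All called genes split into 2930 higher and 5899 lower with library totals and 1736 higher and 6972 lower in TPM. TGF-beta targets had 10 rises and 7 falls of 19, led by Postn, a matrix protein of bone (1.61 ± 0.04), Ccn2 (2.04 ± 0.10), Tgfbi (1.28 ± 0.06) and Lox, a collagen crosslinking enzyme (0.93 ± 0.04). BMP targets had 3 rises and 2 falls of 9, or 55.6% called, against 57.7% of all tested genes. Alpl had 25.3, 22.9 and 24.4 CPM in differentiated and 0.281, 1.39 and 0.209 CPM in undifferentiated controls (5.27 ± 0.43), and Bglap had 13.3, 13.2 and 13.3 CPM in differentiated and 2.95, 2.45 and 1.92 CPM in undifferentiated controls (2.45 ± 0.16). Both mineralisation genes were higher in each differentiated control. Atoh8 (-1.28) and Gata2 (-0.67), transcription factor genes responsive to BMP signals, fell. Among antagonists, Bmper rose by 1.95 ± 0.06 and Crim1 fell by 1.01 ± 0.05, and Lrrc32 rose by 4.38 ± 0.38.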

How the data were processed

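RNA sequencing libraries were made from total RNA with the KAPA Standard kit, per the labels. FastQC, cutadapt, Salmon, StringTie and mm10 are named in the submitters' processing notes, with no versions. The authors deposited, for each library, Salmon's estimated count and TPM for 147828 transcripts. Of these, 137063 (92.7%) were matched by transcript ID without its version to GENCODE M21 (GRCm38) and summed to 51707 genes, and unmatched transcripts held 1.28% to 3.67% of a library's reads.

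Expected counts were rounded to whole numbers, filtered with filterByExpr and fitted with edgeR 4.0.16 (R 4.3.3) by the quasi-likelihood test with robust dispersion, TMM scaling and 4 group means over all 12 libraries (3 per group, 8 residual degrees of freedom). Genes were called at a Benjamini-Hochberg adjusted p below 0.05 over 14711 genes, two-sided, in each of 4 comparisons and in the interaction. CPM use the TMM library sizes. Log2 fold changes had a standard error of 0.089 in the median gene, at a coefficient of variation of 8.18% between libraries. The scripts were tested on simulated data. Alternatives were DESeq2 1.42.0, limma 3.58.1 on log2(TPM + 0.5), other scalings, no filter, offsets for effective length, a replicate block, fits of the compared groups alone, and fits without single libraries or those with liver transcripts. A fold change in TPM is on the log2(TPM + 0.5) scale and understates changes of low genes.

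The members and lists were chosen with earlier results of these data known. Values in every library were to be given for members called with a log2 fold change or interaction of at least 1 in size and a mean of at least 1 CPM, and for Tgfb1, Bmp4, Smad7, Id1 and Tgfbi. Other members given in full were picked for their role in the pathway, after their values were seen. From each other list up to 4 called genes with the smallest adjusted p were named. Some items are not reported here. Promoters are from RefSeq (GRCm38.p6), which held an entry for 31 of the 43 members. Intervals and floors cover counting error only.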

Additional observations from a re-analysis of the deposited data

Results flagged for a closer look

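The BIGH3 effect differed between differentiated and undifferentiated cells, by the interaction term of the edgeR fit, for 20 members. Each value is the log2 fold change in differentiated cells minus that in undifferentiated cells. In the TGF-beta arm it was 1.48 for Tgfbr3, 1.12 for Ltbp2, 0.64 for Tgif1, 0.54 for Smad3, 0.54 for Skil, 0.37 for Ltbp1 and 0.30 for Tgfb3. It was negative for Fst (-0.83), Tgfbr1 (-0.38), Tgfb2 (-0.29) and Ski (-0.29). In the BMP arm it was 1.83 for Grem1, 0.44 for Acvr1, 0.38 for Fstl1 and 0.31 for Bmpr2. It was negative for Id1 (-1.21), Id4 (-1.11), Id2 (-0.85), Bmp4 (-0.83) and Smad6 (-0.70). Adjusted p ran up to 0.0164, in Ski. No shared gene had a called interaction.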

How the results depend on the processing

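Of the recomputed values of single members, 4152 kept their status as called or not called. The call was lost by 62 and gained by 34 with the sign kept, and 3 changed sign and were called before or after. Changes of sign between values not called in either fit were not counted. Calls held in every alternative for 18 of 24 members with BIGH3 in differentiated cells, 25 of 29 with differentiation in control cells, 23 of 36 with differentiation in BIGH3 treated cells and 17 of 20 interactions. With BIGH3 in undifferentiated cells all 39 members stayed uncalled in every alternative. The number of all genes called in that comparison, 3 with edgeR, was 8 with the DESeq2 test, 21 with no low-count filter, 0 with the compared groups alone, 1 with offsets for effective length, 1 in log2 TPM, 1 when the 3 libraries highest in liver transcripts were dropped, 5 when undifferentiated BIGH3 1 was dropped too, and 0 to 3 when each library was left out. The 3 counted changes of sign were in log2 TPM. They were for Bmp4 with differentiation in control cells (-0.235), and for Acvr1 (-0.034) and Fstl1 (-0.050) with differentiation in BIGH3 treated cells. The interaction was not called for Smad6 with offsets for effective length (adjusted p = 0.360) or in log2 TPM (0.651), for Tgfb2 in log2 TPM (0.271), or for Ski in log2 TPM (0.227), without those 3 or 4 libraries (0.129 and 0.234) and without undifferentiated control 1 (0.0523). With differentiation in control cells, the small falls of Smad2 and Bmpr1a were not called without differentiated control 1 (0.0958 and 0.0640) or undifferentiated control 2 (0.103 and 0.118), or without those 3 (0.0821 and 0.248) or 4 libraries (0.0811 and 0.247). Smad2 was also not called with offsets for effective length (-0.11, 0.273), nor Bmpr1a without differentiated control 2 (0.0808) or undifferentiated control 3 (0.0654). The cause was not tested.

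A replicate block gave 24, 0, 29, 36 and 20 members called in the 4 comparisons and the interaction, and 6639, 3, 8442, 8299 and 4669 genes, and changed no member's call. The replicate numbers were not found to pair the libraries: 2 of 12 correlations of same-numbered libraries exceeded 0.1 (range -0.224 to 0.35), and 3 of 12 libraries correlated best with their own number.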
